A study of Mus musculus with 18 samples.

Results

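Border Lgr5+ cells of the large intestine (LI) were compared with centre Lgr5+ cells of the same site in bulk RNA-seq libraries. The members are the 6 libraries, of 18 in the series, that the sample titles give as LI with medium GFP (border, replicates 1 to 3) and LI with high GFP (centre, replicates 1 to 3), and they were paired by replicate number. All 6 came from untreated C57BL/6 mice of the genotype Lgr5_eGFP_Iris_creERT2, aged 8 to 20 weeks by the labels. The study's methods give a wider age range for its RNA-seq mice. In this genotype a cassette of eGFP and a tamoxifen-inducible Cre sits in the Lgr5 locus in place of a copy of the gene. The cassette is expressed in a patchy manner between crypts. Crypts were dissociated, and live EPCAM-positive cells were sorted by the GFP signal alone, so that centre and border are names for GFP levels and not for positions seen in the tissue. The question was whether the cells at the upper edge of the Lgr5+ zone differ in transcription from those at the crypt bottom. The study's methods call the replicates biological, but the mouse behind each number is not given, and p-values measure only the spread between these libraries. The other LI libraries, 3 of low GFP (row >3), carry the same numbers and entered the fit, where they helped to estimate the spread and the replicate effect.

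Lgr5 is a receptor for R-spondins that strengthens Wnt signalling and marks the stem cells at the base of intestinal crypts. Cells that leave the base lose Wnt target transcripts and take up absorptive or secretory fates. In the LI the absorptive cells are colonocytes, and the secretory cells are goblet cells, the deep crypt secretory cells that stand between the stem cells, hormone-producing enteroendocrine cells and chemosensory tuft cells.

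Total counts lay between 15312877 and 26509262 in the 6 libraries, and 16778 to 19886 genes had a count. The 5 most abundant genes, which are ribosomal and mitochondrial RNAs, took 28.9% to 33.3% of the counts. Epithelial identity was clear, with Epcam between 803 and 1120 CPM (counts scaled to a common library size) and the intestinal transcription factor Cdx2 between 145 and 192 CPM. Hoxb13, of the distal LI, had 0 counts in all 6 libraries. The Paneth cell lysozyme Lyz1 had at most 1 count and the small intestinal factor Gata4 at most 1 count. Replicate 2 held 1397 to 2372 counts of Y-linked genes in its 3 LI libraries, against at most 1 in those of replicates 1 and 3. Replicate 1 stood apart by its spread: the median absolute difference between its border and centre library was 0.32 on the log2 CPM scale, against 0.16 and 0.14 in replicates 2 and 3, and its centre library had the fewest genes with a count. The counts of list members called are given below with and without it.

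Of 14617 genes tested, 9 passed an adjusted p of 0.05 (0.0616%) by the quasi-likelihood test of edgeR after Benjamini-Hochberg adjustment, 8 higher (0.0547%) and 1 lower (0.00684%) in border cells. Those that rose were Gsdmc4 and Gsdmc2, Dmbt1, Ugdh, Hao2, Car2, Lgals3 and Ces2e, and the gene that fell was Cyr61. At an unadjusted p under 0.05 there were 982 genes (6.72%). Differences were small in general, with a median absolute log2 fold change of 0.14 over all genes and a median of 0.0071. The count of calls depended on single libraries and on the pairing. Without the replicate block no gene was called by the same test (343 at an unadjusted p under 0.05), and DESeq2 without the block on the 6 libraries called 10, of which 3 were among the 9. Leaving out a library gave 0, 2 and 1 calls without centre replicates 1, 2 and 3 and 4, 1 and 1 calls without border replicates 1, 2 and 3. With all LI libraries of replicate 1 left out there were 393 calls, 271 higher (1.84%) and 122 lower (0.829%), which included all 9 genes; without those of replicate 2 or of replicate 3 there were 2. A fit of the 6 libraries alone, with the block, called 49 genes, 35 higher (0.248%) and 14 lower (0.099%), again with all 9 among them.

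**Figure D1:**
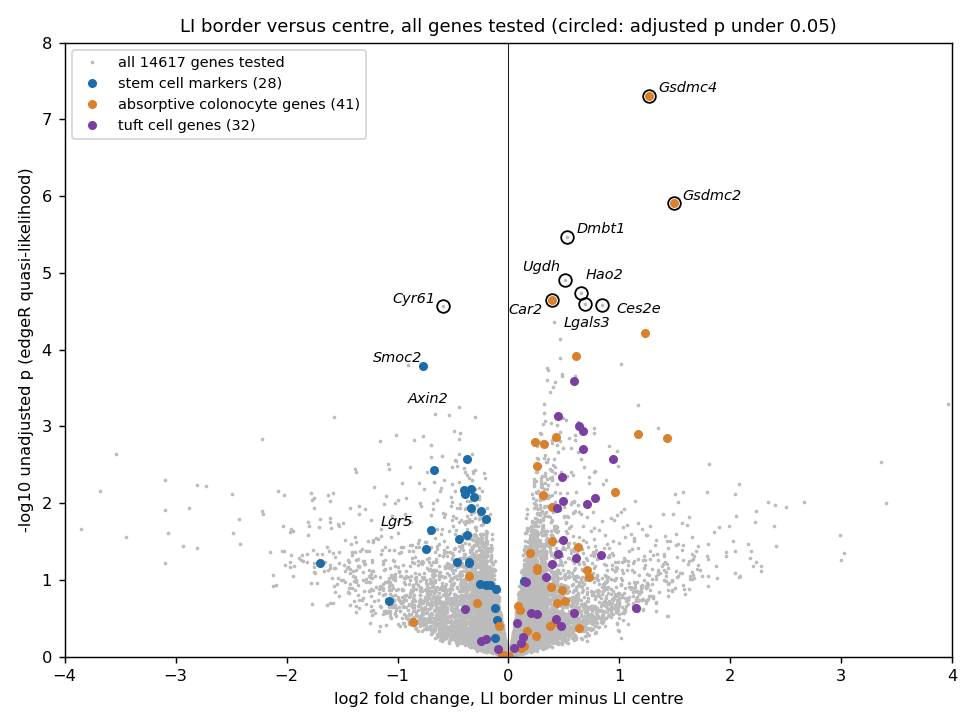
Each point is a gene, with the log2 fold change of LI border over LI centre on the x axis and -log10 of the unadjusted p of edgeR's quasi-likelihood test on the y axis; colours mark 28 stem cell markers, 41 colonocyte genes and 32 tuft cell genes, and circles mark the 9 genes called. Stem cell markers lie almost all left of 0, colonocyte and tuft cell genes mostly right of 0; 3 genes fall outside the plotted fold range of -4 to 4.

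Gsdmc4 and Gsdmc2, gasdermin C genes of the upper colon crypt whose proteins belong to a family of pore formers, had the smallest p-values. Gsdmc4 (chromosome 15, 63891264 to 63912297, GRCm38, minus strand) was at 49.9, 68.2 and 72.7 CPM in centre libraries 1, 2 and 3 and at 120, 150 and 194 CPM in border libraries 1, 2 and 3. Gsdmc2, its neighbour at 63824346 to 63845177, was at 21.6, 28.3 and 28.2 CPM in centre and at 59.2, 72.2 and 92.3 CPM in border. The border libraries lay above all centre libraries for both genes. Gsdmc4 rose by a log2 fold change of 1.27 (SE 0.10, 2.4-fold, adjusted p = 0.000717) and Gsdmc2 by 1.49 (SE 0.16, 2.82-fold, adjusted p = 0.00903). Gsdmc3 lies between them and had 7.84, 4.35 and 5.24 CPM in centre against 15, 12.1 and 12.7 CPM in border, a log2 fold change of 1.23 (SE 0.20) that missed the threshold at an adjusted p of 0.0807. The 3 genes are close paralogues. Of all windows of 100 bases in the longest transcript, 20.2% in Gsdmc4, 28.6% in Gsdmc2 and 30.5% in Gsdmc3 were found unchanged in the transcript of another gene, so that part of their reads cannot be assigned with certainty to any of them. With each of the 6 libraries omitted in turn, Gsdmc4 kept an adjusted p under 0.05 in 5 fits and Gsdmc2 in 2.

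Dmbt1, a secreted scavenger receptor protein of mucosal surfaces (chromosome 7, 131032053 to 131121630, plus strand), was abundant in every library, with 3560, 3670 and 3830 CPM in centre and 4740, 5450 and 5860 CPM in border. It rose by a log2 fold change of 0.53 (SE 0.064, 1.44-fold, adjusted p = 0.0166), and the groups did not overlap. The annotated span of Fgfr2 overlaps it on the other strand, and whether reads were counted by strand is not given in the sources used here. Ugdh (chromosome 5, 65413221 to 65435949), the enzyme that makes UDP-glucuronate for glycosaminoglycans and glucuronidation, had 165, 192 and 216 CPM in centre and 248, 253 and 318 CPM in border. It rose 1.43-fold (log2 fold change 0.51, SE 0.071, adjusted p = 0.0444), also without overlap. Non-overlap in this direction was found for 4.22% of all genes tested, and in either direction for 8.05%.

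The remaining 4 genes that rose overlapped between groups, but were higher in border in all 3 pairs, as were 17.1% of all genes. Hao2 (chromosome 3, 98874521 to 98893239), a peroxisomal 2-hydroxyacid oxidase, had 69.4, 103 and 102 CPM in centre libraries and 97.8, 154 and 183 CPM in border libraries. Car2 (chromosome 3, 14886273 to 14900770), the cytosolic carbonic anhydrase of absorptive cells, had 335, 414 and 525 CPM against 422, 553 and 705 CPM. For both genes the overlap came from border library 1, which lay below centre libraries 2 and 3 for Hao2 and below centre library 3 for Car2. Their log2 fold changes were 0.65 (SE 0.093) and 0.39 (SE 0.057). Lgals3 (chromosome 14, 47367751 to 47386160), which encodes galectin-3, a lectin that rises as enterocytes and colonocytes mature, had 35.6, 38 and 50 CPM in centre and 47.3, 69.7 and 83.6 CPM in border. Ces2e (chromosome 8, 104926260 to 104934672), a carboxylesterase, had 9.55, 14.2 and 19.6 CPM in centre and 17.6, 28 and 31.6 CPM in border. These 2 genes rose by log2 fold changes of 0.69 (SE 0.10) and 0.84 (SE 0.12), and the adjusted p was 0.0444 for each of the 4 genes. With each of the 6 libraries omitted in turn, Lgals3 kept an adjusted p under 0.05 in 1 fit, and Dmbt1, Ugdh, Hao2, Car2, Ces2e and Cyr61 in none.

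Cyr61, now named Ccn1, encodes a matrix-associated protein induced rapidly by growth factors and by YAP and TEAD. It was at 110, 87 and 65.8 CPM in centre libraries 1, 2 and 3 and at 74.5, 62.8 and 39.4 CPM in border libraries. Each border library lay below the centre library of its own number, although the groups overlapped. The gene fell by 0.59 on the log2 scale (SE 0.088, adjusted p = 0.0444). Since it was the gene that fell, its promoter is shown, from 250 bases before to 50 after the RefSeq start (GRCm38.p6, chr3:145649936-145650235, minus strand), with the letters CATTCC, the core to which TEAD factors bind, in capitals:
Ccn1: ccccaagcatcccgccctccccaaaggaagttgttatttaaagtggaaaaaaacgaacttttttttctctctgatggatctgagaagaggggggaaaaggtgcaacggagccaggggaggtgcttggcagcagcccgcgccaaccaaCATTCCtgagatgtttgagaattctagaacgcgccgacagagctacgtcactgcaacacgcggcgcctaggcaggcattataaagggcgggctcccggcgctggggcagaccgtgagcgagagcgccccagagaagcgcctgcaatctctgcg
The match begins 103 bases before the start. CATTCC on either strand is present in 14.6% of the 27025 RefSeq promoter windows of this length, so that a match alone is common, and no binding was measured here. Among 34 immediate-early genes tested, Cyr61 was the member called as lower (0.00684% of all genes). Another 5 were lower and 1 was higher at an unadjusted p under 0.05, against 2.74% and 3.98% of all genes, and the median log2 fold change was -0.11. With single libraries omitted, the median lay between -0.19 without border replicate 2 and -0.065 without centre replicate 3, and the 6 lower members, Cyr61 included, became 2 without centre replicate 3 and 2 without border replicate 1. Without replicate 1, 4 of the 34 were called as lower and 1 as higher, against 0.829% and 1.84% of all genes. Egr1, a transcription factor of the early growth factor response, had 623, 582 and 425 CPM in centre and 551, 543 and 330 CPM in border (log2 fold change -0.21, SE 0.076, adjusted p = 0.616). The member that was higher was Klf4, a factor of goblet and surface colonocyte differentiation, with 74, 90.6 and 114 CPM in centre and 119, 118 and 158 CPM in border (log2 fold change 0.49, SE 0.12, adjusted p = 0.336). Egr1 and Klf4 were picked after their values were seen.

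**Figure D2:**
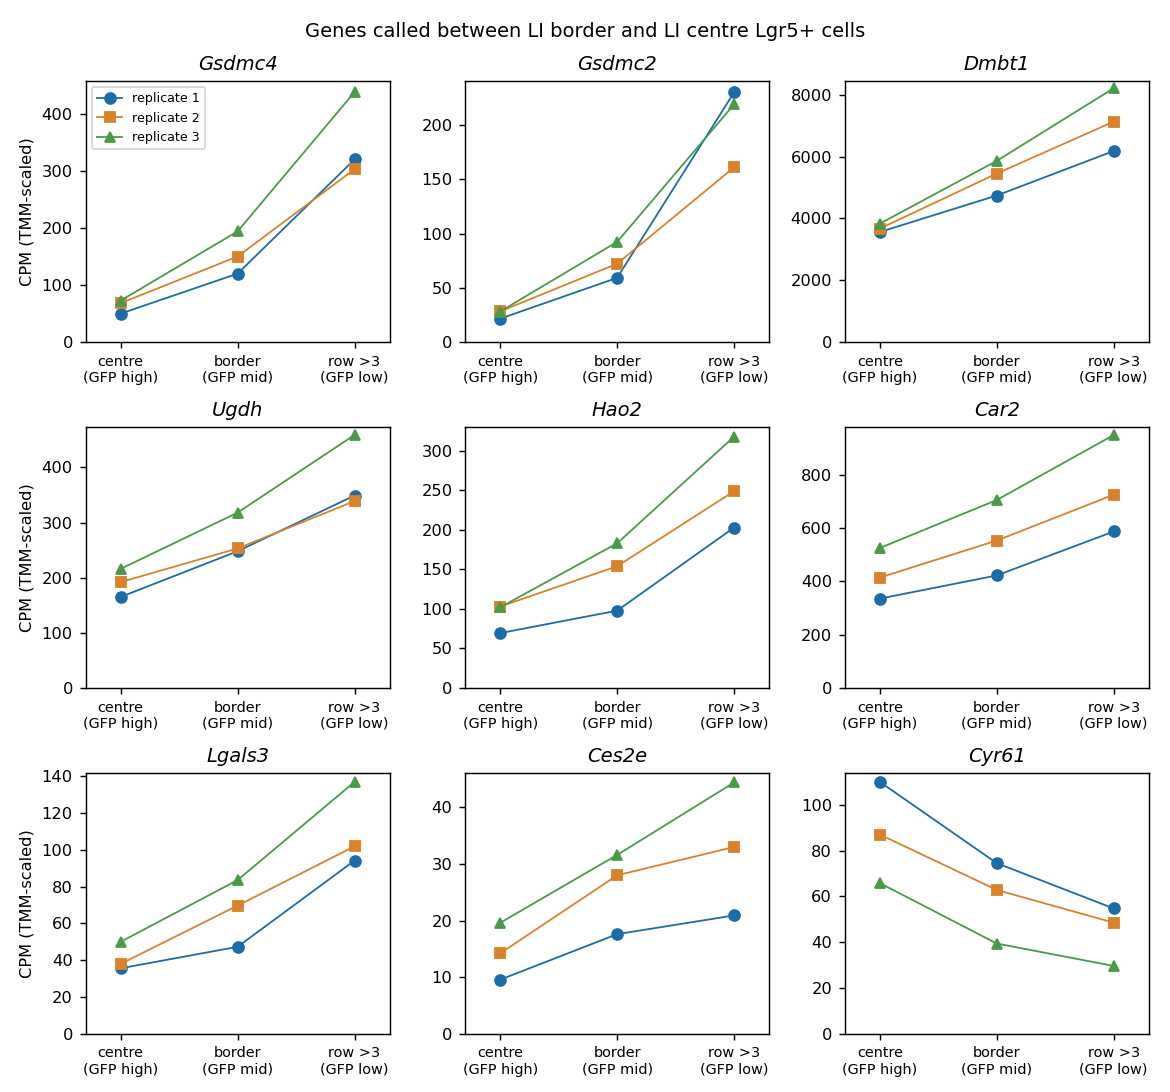
Each panel shows the TMM-scaled CPM of a gene called between LI border and LI centre, by GFP level, with a marker and line for each replicate. Within each replicate the 8 genes that rose climb from centre through border to row >3, and Cyr61 declines, from 110 to 54.7 CPM in replicate 1.

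The row >3 libraries continued the difference for all 9 genes. In each of the 3 replicates the 8 genes that rose were lowest in centre, higher in border and highest in row >3, a pattern that 7.18% of all genes tested had, and Cyr61 had the opposite order, which 5.58% had. Gsdmc2, for example, reached 230, 161 and 219 CPM in row >3 libraries and Dmbt1 6180, 7130 and 8210 CPM. Since the 9 genes were chosen for their difference between centre and border, that step of the order was fixed by the choice. Of all genes tested, 2500 were higher in border in all 3 pairs and 1050 had the full rising order. The opposite counts were 2222 and 815. The row >3 libraries share their spread estimate with the comparison, and the order is given as a description.

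Most stem cell markers had lower values in border libraries, and none was called by edgeR on the 9 LI libraries. GFP is read from the Lgr5 locus, so the difference in Lgr5 is set by the sort and checks the labels: Lgr5 was at 129, 120 and 113 CPM in centre and at 84.6, 76.9 and 61.1 CPM in border, and at 6.8, 24 and 13.3 CPM in row >3. Border over centre, its log2 fold change was -0.70 (SE 0.25). Of the other 27 markers tested, 26 had a negative log2 fold change, 21 were lower in all 3 pairs (15.2% of all genes were), 9 did not overlap (3.83% of all genes) and 13 had an unadjusted p under 0.05 (2.74% of all genes), with a median log2 fold change of -0.34. With Lgr5 counted in, 14 had an unadjusted p under 0.05, and the count was 9 without centre replicate 1 and 7 without centre replicate 3, border replicate 2 or border replicate 3. Ifitm1 was listed but too low to be tested. The summed level with Lgr5 was 5540, 5590 and 5520 CPM in centre, 4500, 4570 and 4390 CPM in border and 2330, 3330 and 2920 CPM in row >3. The centre libraries thus differed little among themselves, and the border libraries lay between the other 2 levels in each replicate. In a bulk sample, fewer cells of a type and less RNA per cell cannot be told apart. The fit of the 6 libraries with the block called 4 of the 27 markers as lower, where it called 0.099% of all genes, and leaving out replicate 1 called 15, where it called 0.829% of all genes. With Lgr5 counted in, DESeq2 with the block called 1 of 29 on 9 and 8 of 29 on 6 libraries as lower (0.141% and 0.507% of all genes).

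Smoc2, a matricellular calcium-binding protein and stem cell marker (chromosome 17, 14279506 to 14404790), had the smallest p of the list. It was at 93.9, 88.5 and 89.1 CPM in centre and at 49.7, 54.6 and 54.6 CPM in border, with no overlap and a narrow spread in both groups. The log2 fold change was -0.77 (SE 0.14, adjusted p = 0.139). Ascl2, the transcription factor that maintains Lgr5+ cells, had 11.7, 14.5 and 18.6 CPM in centre and 10, 11.2 and 13.6 CPM in border. Its groups overlapped, and its log2 fold change was -0.36 (SE 0.17, adjusted p = 0.74). Scn2b, a sodium channel subunit, was at 48, 48.6 and 53 CPM in centre and at 31.6, 30.8 and 30.9 CPM in border (log2 fold change -0.67, SE 0.19, adjusted p = 0.428). Lrig1, an inhibitor of ErbB signalling, was at 340, 247 and 222 CPM against 242, 211 and 183 CPM, and Phlda1, a pleckstrin-homology protein, at 139, 161 and 156 CPM against 119, 122 and 114 CPM. Every pair had the lower value in border for both. The water channel Aqp4 was at 68, 82 and 77.1 CPM in centre and at 44.2, 65.6 and 63.4 CPM in border. Scn2b and Aqp4 were picked after their values were seen. Smoc2 was among the markers called in the fit of the 6 libraries, at an adjusted p of 0.00233 in edgeR's quasi-likelihood test.

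Of 31 Wnt feedback genes and targets tested, 5 (16.1%) were lower and 2 (6.45%) higher at an unadjusted p under 0.05, against 2.74% and 3.98% of all genes, none was called and the median log2 fold change was -0.07. The fit of the 6 libraries with the block called 3 as lower (0.099% of all genes), and DESeq2 with the block called 1 on 9 and 5 on 6 libraries (0.141% and 0.507% of all genes). Without replicate 1, 7 of 32 were called as lower and 1 as higher (0.829% and 1.84% of all genes), with a median of -0.0021. When single libraries were left out, the median ranged from -0.11 without centre replicate 3 to -0.0056 without centre replicate 1. Axin2, the feedback inhibitor of the pathway (chromosome 11, 108920349 to 108950783), was at 183, 149 and 147 CPM in centre and at 143, 107 and 103 CPM in border. All border libraries lay below all centre libraries, and the log2 fold change was -0.45 (SE 0.095, adjusted p = 0.26). Rnf43, an E3 ligase that removes Wnt receptors, was at 178, 134 and 124 CPM against 146, 102 and 102 CPM, and Sox4, a transcription factor, at 191, 164 and 150 CPM against 164, 110 and 112 CPM, and these 2 genes were picked after their values were seen. The adhesion receptor Cd44 had 494, 527 and 469 CPM in centre and 385, 456 and 380 CPM in border (log2 fold change -0.29, SE 0.14, adjusted p = 0.74). Cyclin D1, encoded by Ccnd1, had 144, 105 and 133 CPM in centre and 118, 105 and 118 CPM in border, a log2 fold change of -0.15 (SE 0.098, adjusted p = 0.787).

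Eph receptors and their ephrin ligands, which sort cells along the crypt axis, did not behave as a block. The receptor Ephb3 was at 129, 103 and 109 CPM in centre and at 92.6, 79.4 and 77.2 CPM in border, without overlap (log2 fold change -0.45, SE 0.12, adjusted p = 0.37). Ephb2, the other receptor, was at 242, 213 and 217 CPM in centre and at 263, 211 and 195 CPM in border, with a log2 fold change of -0.016 (SE 0.072, adjusted p = 0.965) that turned positive without replicate 3. The ligand gene Efnb2 was at 28.8, 26 and 28.7 CPM in centre and at 34.3, 38.6 and 43.2 CPM in border, and at 77.3, 53.4 and 70.6 CPM in row >3. Its log2 fold change was 0.47 (SE 0.13, adjusted p = 0.428), with no overlap. Another ligand gene, Efnb1, had a mean of 47.1 CPM in centre and 58.6 CPM in border. Its log2 fold change was 0.30 (adjusted p = 0.573 in edgeR's quasi-likelihood test). Efnb3 was near the limit of detection, at 0.296 to 2 CPM in the 6 libraries, and its sign depended on the model. Klhl24, Cdo1, Ets2, Tenm4 and Neb had the smallest p-values among genes lower in all 3 pairs, beside Smoc2, Axin2 and Cyr61, with log2 fold changes of -0.66, -0.54, -0.30, -0.91 and -1.57 and adjusted p of at least 0.139 in edgeR's quasi-likelihood test. Tenm4, a teneurin adhesion protein, was at 31.7, 21.4 and 46.3 CPM in centre and at 11.7, 11.8 and 30.3 CPM in border. Neb was at 11.1, 0.75 and 0.508 CPM in centre and at 3.33, 0.45 and 0.231 CPM in border, so that replicate 1 had the highest level in both groups.

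All gene lists were chosen with earlier results of these data known, so counts of their members are descriptions. Among these lists, colonocyte genes had the most calls. Of 41 tested, Gsdmc4, Gsdmc2 and Car2 rose and none fell (0.0547% and 0.00684% of all genes), 17 were higher and none lower at an unadjusted p under 0.05 (3.98% and 2.74% of all genes), 35 had a positive log2 fold change and the median was 0.37, or 0.21 without border replicate 2. The fit of the 6 libraries with the block called 7 as higher (0.248% of all genes). Summed over 46 genes, the level was 4310, 4520 and 5560 CPM in centre, 4760, 6350 and 7250 CPM in border and 8660, 8370 and 11000 CPM in row >3. In every pair the border library was higher, by less in replicate 1 than in replicates 2 and 3. Without replicate 1, 21 members of 42 tested were called as higher and 1 as lower, against 1.84% and 0.829% of all genes.

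Car1, the carbonic anhydrase of colonocytes, showed the same contrast between replicates. It was at 125, 193 and 233 CPM in centre and at 174, 590 and 564 CPM in border (log2 fold change 1.17, SE 0.23, adjusted p = 0.318). Border library 1 was the single border library within the range of the centre libraries. Slc37a2, a sugar-phosphate exchanger, was at 23.4, 44.2 and 37.8 CPM in centre and at 58.5, 113 and 118 CPM in border, and reached 414, 295 and 379 CPM in row >3. Its log2 fold change of 1.43 (SE 0.29, adjusted p = 0.318) was as large as that of the Gsdmc genes. Selenbp1, a selenium-binding methanethiol oxidase, was at 97.2, 86.4 and 110 CPM against 127, 145 and 177 CPM, without overlap (log2 fold change 0.61, SE 0.11, adjusted p = 0.136). The phosphate carrier Slc20a1 was at 35, 52.9 and 42.5 CPM in centre and at 83.4, 90.7 and 84 CPM in border, and the butyrate transporter Slc5a8 at 30.2, 34.9 and 46.6 CPM against 35.5, 49.8 and 65.9 CPM. The surface keratin Krt20 had no stable direction, at 31, 21 and 23 CPM in centre and 11.7, 40.8 and 39.6 CPM in border, and the chloride exchanger Slc26a3 was lower in border in replicate 1 (45.2 against 37.3 CPM) and higher in replicates 2 and 3. Car1, Slc37a2, Selenbp1, Gsdmc3, Slc20a1, Slc5a8, Krt20 and Slc26a3 were picked after their values were seen.

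**Figure D3:**
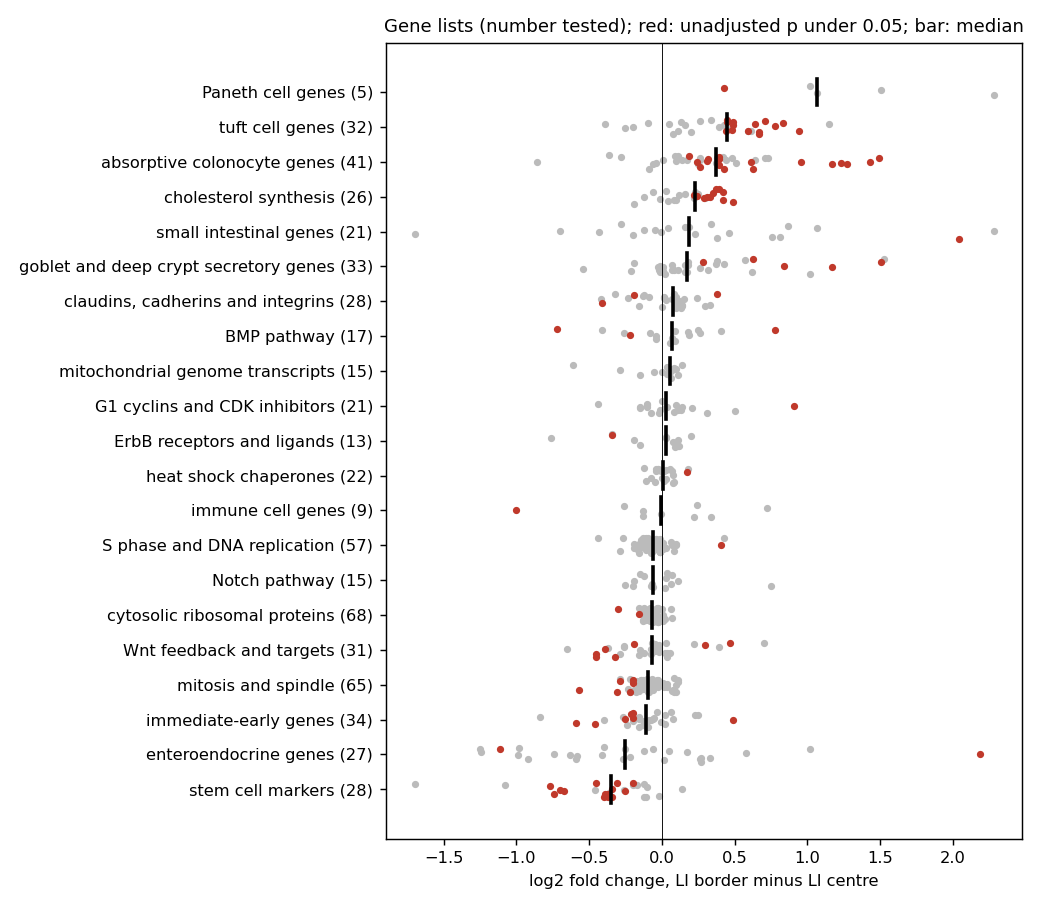
Each point is a gene, placed by its log2 fold change of LI border over LI centre within its list (number of genes tested in brackets), red where the unadjusted p was under 0.05, with a bar at the median of the list. Medians run from -0.35 for the stem cell markers to 0.45 for tuft cell genes and 1.07 for the 5 Paneth cell genes that could be tested. All of these 5 but Nupr1 were at low levels.

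The summed level of tuft cell genes was highest in border among the 3 GFP levels, a comparison with row >3 that was not tested. Of 32 tested, 28 had a positive log2 fold change, 20 were higher than centre in all 3 pairs (17.1% of all genes), 14 were higher and none lower at an unadjusted p under 0.05 (3.98% and 2.74% of all genes), and the median was 0.45, but none was called by edgeR on the 9 LI libraries. The count of 14 was 8 without border replicate 1. Their summed level was 831, 759 and 775 CPM in centre, 1110, 865 and 921 CPM in border and 610, 644 and 653 CPM in row >3. In each replicate the border library was above both other levels. Of the single genes, 17 of the 32 (53.1%) were highest in border in all 3 replicates, as were 2.76% of all genes tested (2.31% were lowest there), and none of the 28 stem cell markers or 41 colonocyte genes had that order. Without replicate 1 the median was 0.38, and 9 of 31 tested were called as higher (1.84% of all genes). DESeq2 with the block called 2 on 9 and 5 on 6 libraries as higher (0.384% and 1.06% of all genes).

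Fyb, an adaptor protein, had the smallest p of the tuft list, at 50.9, 34.6 and 28.6 CPM in centre, 85.8, 41.8 and 45.8 CPM in border and 40.8, 28.4 and 23.8 CPM in row >3 (border over centre log2 fold change 0.59, SE 0.11, adjusted p = 0.153). The kinase Dclk1, a widely used tuft marker, was at 121, 95.5 and 75.3 CPM in centre, 172, 115 and 112 CPM in border and 83.7, 75.5 and 71.3 CPM in row >3 (0.45, SE 0.099, adjusted p = 0.289). In both genes border library 1 was the highest of the 9 LI libraries. Gnat3, the taste G protein gustducin, was at 5.66, 12 and 11 CPM in centre and at 23.2, 17.2 and 15.7 CPM in border, and Alox5, which starts leukotriene synthesis, at 10.7, 8.66 and 9.18 CPM against 20, 12.9 and 12.9 CPM. All border libraries lay above all centre libraries for both genes. The kinase Matk was at 19.8, 21.1 and 13.3 CPM against 41.1, 28.5 and 19.3 CPM. Leukocytes also express Fyb, Matk and Alox5. Of 30 immune cell genes, 9 were high enough to be tested, none was called and 2 had no count in the 6 libraries, and their summed level was 45.2 to 86.7 CPM in centre and 41.6 to 88.3 CPM in border. Ptprc, which encodes the leukocyte antigen CD45, ranged from 4.11 to 14 CPM, and border library 1 had the most counts of it (302). The part of leukocytes in these values was not tested. Gnat3, Alox5 and Matk were picked after their values were seen.

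**Figure D4:**
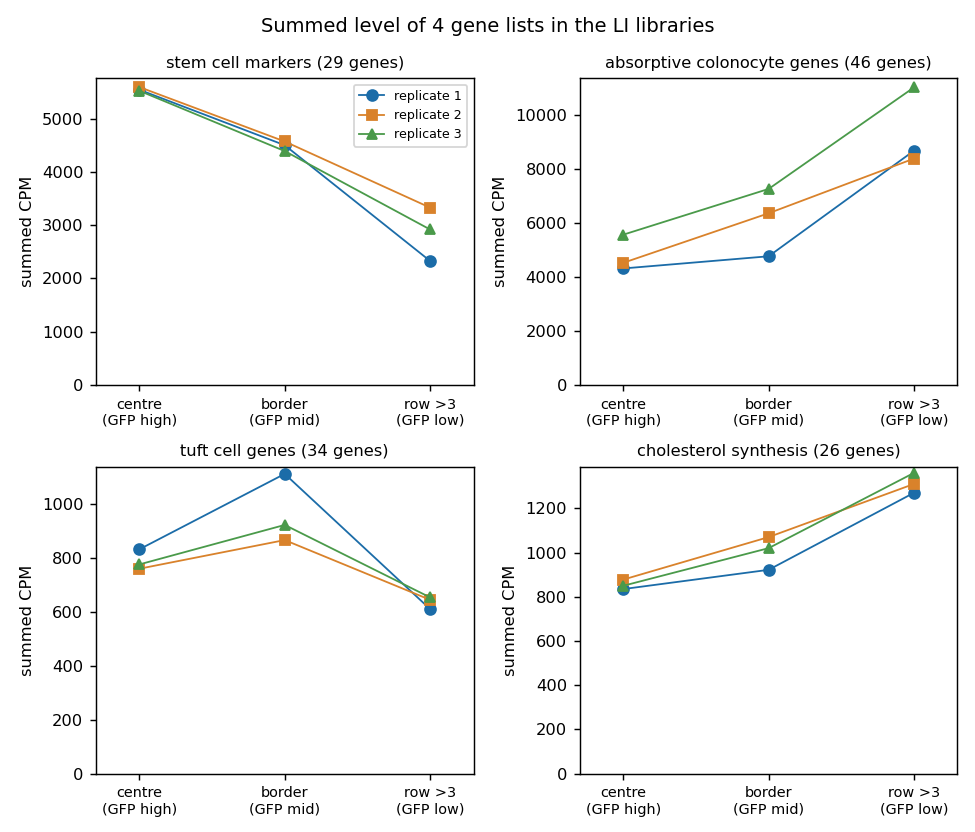
Summed CPM of the stem cell markers, colonocyte genes, tuft cell genes and cholesterol synthesis genes in each of the 9 LI libraries, by GFP level, with a marker and line for each replicate. Stem cell markers decline and colonocyte and cholesterol genes climb from centre to row >3, while tuft cell genes peak in border, at 865 to 1110 CPM.

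Goblet and deep crypt secretory genes were higher in border for 26 of 33 tested, with a median log2 fold change of 0.17, 5 higher and none lower at an unadjusted p under 0.05 (3.98% and 2.74% of all genes), and none called by edgeR on the 9 LI libraries. Muc2, the main gel-forming mucin, was at 5670, 4530 and 6970 CPM in centre and at 6710, 5790 and 8250 CPM in border (log2 fold change 0.28, SE 0.096, adjusted p = 0.584). Fcgbp, a mucus protein bound to Muc2, was at 1570, 1570 and 2780 CPM in centre and at 2380, 2540 and 4150 CPM in border (0.63, SE 0.15, adjusted p = 0.367). Replicate 3 was the highest at both levels for these 2 genes, and every pair had the higher value in border. Fer1l6, a ferlin, was at 13.5, 13.8 and 23.3 CPM against 39.8, 27.8 and 50.3 CPM, with no overlap (1.17, SE 0.24, adjusted p = 0.255). The lectin Zg16 was at 3.71, 9.45 and 23.4 CPM in centre and at 12.4, 30.6 and 69.1 CPM in border, and the goblet protease Clca3 (now Clca1) at 6.31, 18.8 and 34.3 CPM against 34.2, 45 and 99 CPM. Their pair differences were between 1.25 and 2.42 on the log2 scale, and the groups overlapped for Zg16 and, narrowly, for Clca3. With the block on the 6 libraries, 6 goblet genes were called as higher (0.248% of all genes), and without replicate 1, 7 were (1.84% of all genes). DESeq2 with the block called none on the 9 and 7 on the 6 libraries as higher (0.384% and 1.06% of all genes). With single libraries omitted, the median over the list lay between 0.015 without centre replicate 1 and 0.40 without centre replicate 3. The count of 5 ranged from 2 without border replicate 2 to 10 without centre replicate 3, and it was 3 without centre replicate 1 or border replicate 3 and 8 without border replicate 1. Muc2, Zg16 and Clca3 were picked after their values were seen.

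Enteroendocrine genes differed in direction between their median and their summed level. The median was -0.25 over 27 tested. At an unadjusted p under 0.05, 1 gene was higher and 1 lower (3.7% each, near the 3.98% and 2.74% of all genes). The median was -0.026 without border replicate 2 and -0.51 without border replicate 3. Their summed level was 1260, 1520 and 2900 CPM in centre, 1400, 1850 and 2610 CPM in border and 3170, 2520 and 3560 CPM in row >3, so that border was higher in 2 pairs and lower in that of replicate 3. Pyy, the hormone peptide YY, was at 0.531, 2.89 and 3.26 CPM in centre and at 0.0463, 0.386 and 2.38 CPM in border. The level was thus close to the limit of detection in several libraries (log2 fold change -1.11, SE 0.48, adjusted p = 0.735). Of 17 Paneth cell genes, 5 were tested, and the list's summed level was at most 115 CPM in the 6 libraries, with none called, or 3 as higher without replicate 1 (1.84% of all genes). Genes of the small intestine had a median of 0.19 over 21 tested. At an unadjusted p under 0.05, 1 was higher (4.76%, near the 3.98% of all genes) and none lower. The median was -0.21 without centre replicate 3 and -0.16 without border replicate 3. Without all libraries of replicate 3 it was -0.32, and without those of replicate 1 it was 0.47, with 4 called as higher and 1 as lower (1.84% and 0.829% of all genes). Stromal and endothelial genes had a summed level of 7.16 to 11.7 CPM in centre and 6.49 to 24.1 CPM in border, the highest in border library 1.

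Of 26 cholesterol synthesis genes tested, 22 had a positive and 4 a negative log2 fold change, 11 were higher and none lower at an unadjusted p under 0.05 (3.98% and 2.74% of all genes), 12 were higher and none lower in all 3 pairs (17.1% of all genes were higher), 6 did not overlap (4.22% of all genes) and none was called by edgeR on the 9 LI libraries, with a median log2 fold change of 0.23. The count of 11 was 7 without centre replicate 2. DESeq2 with the block called 2 members on 9 and 3 on 6 libraries as higher (0.384% and 1.06% of all genes). Their summed level was 835, 878 and 850 CPM in centre, 922, 1070 and 1020 CPM in border and 1270, 1310 and 1360 CPM in row >3, so that the 3 levels did not overlap. Hmgcs1, the HMG-CoA synthase of the pathway, was at 52.2, 72.5 and 80 CPM in centre and at 69.6, 92.7 and 103 CPM in border (0.37, SE 0.075, adjusted p = 0.19). Sqle, squalene epoxidase, which was picked after its values were seen, was at 28.4, 25 and 25.5 CPM in centre and at 30.4, 32.3 and 35.7 CPM in border. Without replicate 1 the median was 0.30, with 10 called as higher (1.84% of all genes).

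Many genes of this pathway carry a sterol regulatory element, to which SREBP factors bind. The Hmgcs1 promoter is shown as the example that held the letters TCACNCCAC, with the match in capitals (GRCm38.p6, chr13:119690101-119690400, plus strand, RefSeq):
Hmgcs1: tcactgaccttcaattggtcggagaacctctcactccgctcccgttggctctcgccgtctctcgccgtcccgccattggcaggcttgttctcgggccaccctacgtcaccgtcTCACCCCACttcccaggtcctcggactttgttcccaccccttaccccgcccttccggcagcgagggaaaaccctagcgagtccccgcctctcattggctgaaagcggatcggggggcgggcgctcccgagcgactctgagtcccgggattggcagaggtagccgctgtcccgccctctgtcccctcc
The match begins 137 bases before the start. Of 18 promoters of the list that were matched by symbol, 1 (5.56%) held these letters on either strand, against 1.22% of the 27025 windows, and no match in the others says only that these letters are not in those windows.

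Proliferation genes had small differences, most of them negative. Of 65 mitosis and spindle genes, 52 had a negative log2 fold change, 23 were lower in all 3 pairs (15.2% of all genes), 6 were lower and none higher at an unadjusted p under 0.05 (2.74% and 3.98% of all genes) and none was called by edgeR on the 9 LI libraries, with a median of -0.096. Without centre replicate 1 the median was -0.028 with 2 lower at that threshold, and there were 2 lower without border replicate 1 and 1 lower without border replicate 2. Top2a, the DNA topoisomerase of dividing cells, was at 611, 644 and 524 CPM in centre and at 492, 557 and 493 CPM in border (-0.20, SE 0.083, adjusted p = 0.714). Mki67, the marker of cycling cells, was at 1590, 1660 and 1310 CPM in centre and at 1440, 1590 and 1380 CPM in border (-0.048, SE 0.067, adjusted p = 0.896). Their levels in border were within or close to the range of centre. Of 57 genes of S phase and DNA replication, 46 had a negative log2 fold change, 15 were lower in all 3 pairs and 1 was higher and none lower at an unadjusted p under 0.05, with a median of -0.06 that was 0.033 without centre replicate 1. In all 3 replicates 22 of the mitosis genes (33.8%) and 14 of the S phase genes (24.6%) declined from centre through border to row >3, as did 5.58% of all genes. E2f2, a transcription factor that was the higher member, had 24.9, 22.9 and 23.7 CPM in centre and 32, 28.1 and 34.5 CPM in border (0.41, SE 0.11, adjusted p = 0.386). Cdkn1c, a CDK inhibitor, had 13.4, 7.16 and 6.64 CPM in centre and 31.5, 10.7 and 10.7 CPM in border (0.91, SE 0.23, adjusted p = 0.32). Top2a and Mki67 were picked after their values were seen. Cytosolic ribosomal protein genes had a median of -0.066 over 68 tested, with 2 lower at an unadjusted p under 0.05 (2.94%, near the 2.74% of all genes). Without centre replicate 1 their median was -0.15 with 20 of 69 lower at that threshold, against 1.96% of all genes in that fit. But the median was -0.034 without centre replicate 2, and -0.0085 with 31 positive and 38 negative members without centre replicate 3. It was -0.028 without all libraries of replicate 3. Without all libraries of replicate 1 the median was -0.12, with 68 of 69 negative and 7 called as lower (0.829% of all genes). Without replicate 1, 1 of 57 genes of the S phase list was called as higher, near the 1.84% of all genes, and none of the mitosis list.

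Lists of signalling and stress genes had medians near that of all genes. The Notch list had -0.062 over 15 tested with none at an unadjusted p under 0.05, and the Notch target Hes1 was at 94.3, 119 and 105 CPM in centre and at 78.9, 107 and 91.3 CPM in border. The BMP list had 0.071 over 17 tested. At an unadjusted p under 0.05, 1 was higher (5.88%, against 3.98% of all genes) and 2 lower (11.8%, against 2.74% of all genes). ErbB receptors and ligands had 0.029 over 13, G1 cyclins and CDK inhibitors 0.032 over 21, heat shock chaperones 0.005 over 22, mitochondrial genome transcripts 0.056 over 15, immune cell genes -0.0076 over 9, and claudins, cadherins and integrins 0.076 over 28. The signs of the BMP, ErbB, G1, heat shock, mitochondrial and immune medians turned in some fits that left out a library. Without replicate 1, 1 of 15 Notch, 1 of 13 ErbB and 1 of 22 heat shock genes was called as lower (0.829% of all genes), and 2 of 21 G1 and 1 of 28 claudin, cadherin and integrin genes as higher (1.84% of all genes). The 5 erythroid genes were too low to be tested.

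Border was also compared with centre in the small intestine (SI), in libraries that share none with the LI comparison, although SI replicate 3 stood apart. The 5 genes most abundant in the LI libraries took 38.8% to 41.1% of counts in its 3 libraries. They took 29.2% to 32.9% in the other SI libraries. Levels of several LI genes in the libraries of SI replicate 3 were far above those of SI replicates 1 and 2. Car2, for example, was at 1.12, 0.499 and 201 CPM in SI centre and at 0.34, 1.52 and 417 CPM in SI border, and Hao2 at 0, 0.0907 and 64 CPM against 0.453, 0.948 and 293 CPM. Dmbt1 was at 178, 170 and 2180 CPM in SI centre and at 654, 695 and 5020 CPM in SI border. What set these libraries apart was not tested, and SI values are given with and without them.

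All 9 genes called in the LI had the same sign in the SI in both cases, where 48.6% of all genes were higher in border with all libraries and 47.9% without replicate 3. For Car2 and Ugdh, however, the pairs of SI replicates 1 and 2 disagreed in sign. Their log2 differences were -1.48 and 1.44 for Car2 and -0.12 and 0.30 for Ugdh. For Cyr61 the pair of SI replicate 3 was higher in border, at 0.15, against -1.12 and -1.66 in replicates 1 and 2. In the SI 6 of the 9 genes were called, or 5 without replicate 3. Of all genes tested there, 5.87% were called with all libraries (3.73% higher and 2.14% lower) and 4.39% without replicate 3. The SI calls with all libraries are from the fit of 18 libraries with the block within site. That fit called no gene between LI border and LI centre. Lgals3, with a log2 fold change of 2.12 in the SI (SE 0.27, adjusted p = 0.000785), Gsdmc2, with 2.73 (SE 0.40, adjusted p = 0.00745), and Dmbt1, with 1.65 (SE 0.31, adjusted p = 0.0218), were called in both cases, at 2.09, 3.18 and 1.96 without replicate 3. The same held for Gsdmc4, at 2.47 (SE 0.55, adjusted p = 0.0382) and at 2.58 without replicate 3. These 4 genes thus had larger SI values than the LI values of 0.69, 1.49, 0.53 and 1.27, with and without those libraries. Some of these SI values started from low levels. SI centre replicates 1 and 2 were at 0.359 and 1.09 CPM for Gsdmc2 and at 0.518 and 2.04 CPM for Gsdmc4. For Lgals3 they were at 3.11 and 0.363 CPM. Hao2 and Car2 were called only with replicate 3: without it the adjusted p of Hao2 went from 0.000615 to 0.0507 while its log2 fold change went from 2.18 to 3.91, and the log2 fold change of Car2 went from 0.95 to 0.21. Cyr61 was called only without replicate 3, at -1.42 (adjusted p = 0.000241) against -0.73 (SE 0.31, adjusted p = 0.179) with it. Ugdh went from 0.60 to 0.12 and Ces2e from 1.60 to 0.57, and neither was called. With all libraries the SI value was farther from 0 than the LI value for each of the 9 genes, but without replicate 3 it was nearer to 0 for Ugdh, Car2 and Ces2e.

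The difference between the sites was tested directly. No gene of 15998 passed an adjusted p of 0.05 for the interaction in edgeR's quasi-likelihood test (0%), while 1307 (8.17%) had an unadjusted p under 0.05. The smallest interaction p among the 9 genes was that of Hao2, whose log2 fold change was 1.54 lower in the LI (adjusted p = 0.223). Without SI replicate 3, 133 genes differed between the sites, 128 with a lower and 5 with a higher value of border over centre in the LI. The median absolute log2 fold change over all genes was 0.14 in the LI, against 0.32 for the SI, or 0.31 without its replicate 3. The LI median is from the fit of the 9 LI libraries over 14617 genes. The SI medians are from fits with both sites over 15998 and 16546 genes, so that fits and gene sets differ.

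**Figure D5:**
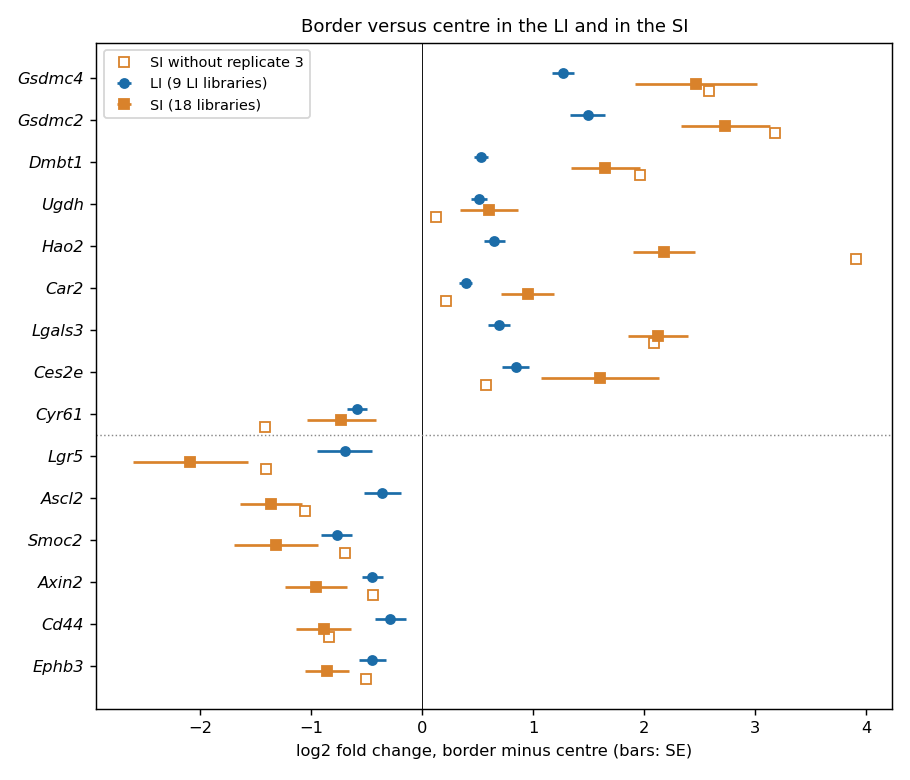
Log2 fold change of border over centre with its SE for the 9 genes called in the LI (above the dotted line) and 6 stem cell and Wnt markers (below), in the LI (circles) and the SI (filled squares), with the SI value without replicate 3 as open squares, drawn without error. All 15 genes have the same sign at both sites, and leaving out SI replicate 3 moves Car2 from 0.95 to 0.21 and Cyr61 from -0.73 to -1.42.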

How the data were processed

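RNA was sequenced from cells sorted as LI or SI, with high, medium or low GFP, in 3 replicates of each of 6 groups. Per the labels and the study's methods, RNA of 270 pg or more per sample went into the SMART-Seq Stranded Kit, pairs of reads were sequenced, and the authors demultiplexed them (bcl2fastq), trimmed adapters, aligned to mm10 and took gene counts with STAR. They deposited raw counts per gene, used here, and a table of counts divided by size factors, not used here. Which annotation and which strand setting the authors counted with is not given in the sources used here. Positions were taken from GENCODE M21, which holds 42462 of the 43346 identifiers.

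The counts were fitted with edgeR 4.0.16 in R 4.3.3 (TMM, filterByExpr, glmQLFit with its robust option) on the 9 LI libraries, with GFP level and replicate number as terms and 4 residual degrees of freedom. Calls were made where the adjusted p (Benjamini-Hochberg, over all 14617 genes tested) was under 0.05. The interaction with site used all 18 libraries, with the block within each site. CPM are TMM-scaled, and pair differences are log2 CPM with a prior count of 2. DESeq2 1.42.0, other filters and scalings, other sets of libraries, no block and libraries left out were alternatives. Scripts were tested on simulated data. Replicates of a group differed by more than counting error.

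Equal numbers were taken as pairs by the rule set for this comparison. The deviations of border and centre libraries from their group means correlated at 0.549, 0.536 and 0.691 in replicates 1, 2 and 3. These correlations are over 11333 genes, and each border library matched its own number best. The members and gene lists were chosen with earlier results of these data known. Named genes are markers that the study names for these cells, the genes called, the 8 lower genes with the smallest p and 1 sign over the pairs, list members called or, in a list with none, the 2 with the smallest p, and those given as picked later. Some genes that these rules name are not reported here. Figures were drawn with matplotlib 3.10.9.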

Additional observations from a re-analysis of the deposited data

How the results depend on the processing

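The count of 9 genes called was unchanged with RLE factors and with the 5 most abundant genes taken out. It was 3 with the filter of a mean count above 0 or with no filter, and 2 with library size only or with the legacy quasi-likelihood fit. Adding a log2 fold change beyond 1 left 2, and an unadjusted p under 0.001 with a log2 fold change beyond 2 gave 1 gene, not among the 9. Without the replicate block it was 0 on 9, 6 and 18 libraries, and with the block within site on 18 libraries it was 0. With the block it was 49 on the 6 libraries in edgeR, and in DESeq2 130 on 9 and 127 on 6 libraries, or, chosen after seeing the data, 52 and 134 on the genes that pass filterByExpr. DESeq2 without the block on 6 libraries called 10, 3 of them among the 9. Fits that left out a library or a replicate number gave 0 to 393. For the difference between LI and SI, 0 genes were called with and without the replicate block and 133 without replicate 3 of the SI. The cause of these shifts was not tested. All 9 genes kept their sign in the SI without the block and without replicate 3.

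Among single genes, the 9 called and the stem cell and Wnt markers named kept their direction, except Ephb2 and Efnb3. Over the fits that left out a library or a replicate number, Ephb2 ranged from -0.086 to 0.046 (0.03 and 0.035 without centre or border replicate 3), Efnb3 from -0.45 to 0.64, Krt20 from -0.14 to 0.86, H2-Aa from -0.086 to 1.37 and Mki67 from -0.11 to 0.014. Efnb3 was also 0.063 without the block on 9 libraries, 0.055 on 6 and 0.0076 on 18, 0.076 and 0.0057 in DESeq2 with the block on 9 and 6 libraries, 0.075 and 0.0049 there with filterByExpr, and 0.079 in the legacy fit. Depth limits genes under about 1 CPM, such as Efnb3 and Pyy.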
